A study of Mus musculus with 5 samples.

Results

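The genes described here are Furin, 5 further proprotein convertase genes (Pcsk1, Pcsk4, Pcsk5, Pcsk6 and Pcsk7) and Fes, the kinase gene that lies next to Furin, 7 of the 19937 genes with a named probe set. Each had exactly 1 probe set carrying its symbol alone, so no choice between probe sets was needed. The cells had been sorted as CD44-low CD4 T cells out of mouse colonic lamina propria, the layer of connective tissue beneath the gut epithelium. There were 3 arrays from conditional mice (CD4cre/Cnb1flox), which carry a Cre recombinase driven by CD4 together with a floxed Cnb1 (gene symbol Ppp3r1), the regulatory subunit of the phosphatase calcineurin. There were 2 arrays from control mice, labelled control WT and CD4neg/Cnb1flox. The second part of that label stands for the floxed gene without Cre, in which case both groups share the floxed allele. With WT (wild type) in the same label, this is not certain. Cre under CD4 acts from the CD4-expressing thymocyte stage onward, so it is not limited to the colon or to cells with low CD44. The labels give no treatment, strain or age, and they leave unstated whether RNA of several mice was pooled for an array. The p-values below therefore speak only of spread between these arrays, which may be technical.

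Proprotein convertases are serine proteases of the secretory pathway that cut precursor proteins after paired basic residues and so release growth factors, receptors, adhesion molecules and hormones in active form. Furin cycles between the trans-Golgi network and the cell surface in nearly all cells, whereas the PC1/3 enzyme encoded by Pcsk1 works in the secretory granules of endocrine and nerve cells. In T cells Furin is known to be induced through interleukin-12 and STAT4, and in mice Furin of T cells is known to help mature transforming growth factor beta 1. Fes is a cytoplasmic tyrosine kinase best known from myeloid and mast cells.

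The samples as a whole set limits on every value. T cell markers were high on 4 arrays, with a mean log2 level over 10 genes between 10.99 and 11.43, and stood at 8.69 in control replicate 1. Cd4 itself read 11.44 to 11.86 on those 4 arrays and 9.26 on control replicate 1. That array also had the highest mean level of colonocyte markers (9.95, against 7.48 to 8.51 elsewhere) and of stromal and endothelial markers (10.64, against 8.50 to 9.45). Stromal signal was not confined to it. Dcn, a gene of the stromal list, read 12.79, 12.51 and 11.90 on the conditional arrays and 13.20 and 12.80 on the control arrays. The other arrays were thus not free of signal from other cells. The targeted gene, Ppp3r1, read between 8.64 and 8.83 on conditional arrays and between 8.60 and 8.99 on control arrays, a difference of -0.05 ± 0.159 (SE, limma, adjusted p = 0.927). Loss of Ppp3r1 RNA was thus not seen on these arrays, and the reason was not tested. The probe set may lie outside the deleted exons, in which case this level checks nothing about the deletion. Since control replicate 1 stood apart, differences of named genes are also given against each control array alone, and a pair of values "by control array" is against replicate 1 and then replicate 2. All levels are log2 RMA signals, all differences are conditional minus control on that log2 scale, and levels are not compared between genes because each probe set has its own brightness.

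The 7 genes fell into 3 patterns. Pcsk1, Furin and Fes were higher on all 3 conditional arrays than on both control arrays. Pcsk7 and Pcsk4 lay at nearly the same level in both groups. Pcsk5 and Pcsk6 were high on control replicate 1 alone. The genes were chosen by their measured differences between conditional and control arrays, with that contrast in view, so these values are a description and were given no test.

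**Figure D1:**
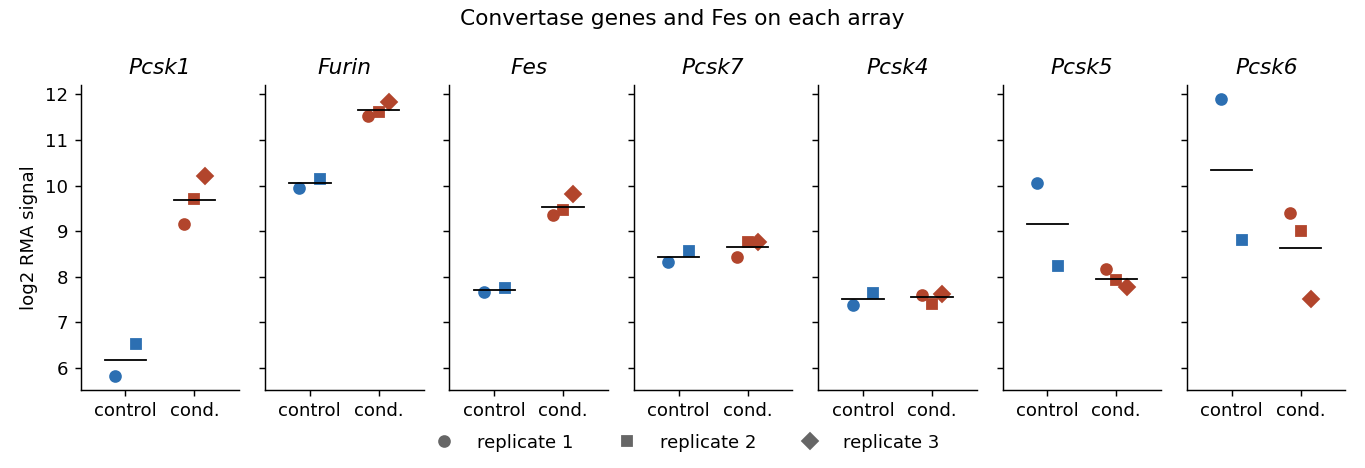
Log2 RMA signal of the 7 genes on each array, with controls in blue, conditional arrays in red, marker shape for the replicate number and a black bar for each group mean (3 conditional, 2 control arrays). Pcsk1, Furin and Fes have all 3 conditional points above both control points, while Pcsk5 and Pcsk6 have 1 high point, control replicate 1.

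Pcsk1, which encodes the PC1/3 prohormone convertase, read 9.16, 9.70 and 10.21 in conditional replicates 1, 2 and 3, and 5.83 and 6.52 in control replicates 1 and 2. The lowest conditional array stood 2.64 above the higher control array, so the groups were far apart. The mean was 9.69 ± 0.528 (SD, n = 3) against 6.17 ± 0.487 (SD, n = 2), a difference of 3.51, or 11.4-fold. Against control replicate 1 alone the ratio was 14.5-fold and against control replicate 2 alone it was 8.99-fold. The difference ranked 9 from the top among all genes. RMA compresses differences at low signal and no call against background was available, so the ratio is approximate. Bulk RNA cannot separate a higher share of cells that express a gene from more RNA per cell, and this holds for every gene here.

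Furin, the founding member of the family, read 11.52, 11.60 and 11.84 on the conditional arrays and 9.95 and 10.14 on the control arrays. The groups did not overlap, with a gap of 1.38 between the nearest arrays, and the arrays within each group lay close together. The mean was 11.65 ± 0.165 (SD, n = 3) against 10.04 ± 0.140 (SD, n = 2), a difference of 1.61, or 3.05-fold. Taking each control alone, Furin was 3.26-fold higher than in replicate 1 and 2.85-fold higher than in replicate 2.

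Fes read 9.35, 9.46 and 9.81 on the conditional arrays and 7.66 and 7.75 on the control arrays. The groups were again apart, by 1.60 between the nearest arrays, and both controls gave nearly the same level. The mean was 9.54 ± 0.240 (SD, n = 3) against 7.71 ± 0.0622 (SD, n = 2), a difference of 1.83, or 3.56-fold, with 3.67-fold against control replicate 1 and 3.45-fold against control replicate 2. For each of Pcsk1, Furin and Fes the highest of the 3 conditional values was that of replicate 3 and the lowest that of replicate 1.

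The upstream sequences of these 3 genes are shown because the genes were higher together and because calcineurin acts through NFAT. RefSeq (GRCm38.p6) gave 7 promoters for 6 of the 7 genes, with 2 start sites for Furin and no entry for Pcsk4. The 250 bases before each start were searched on both strands for the cAMP response element (TGACGTCA) and its core (TGACG), for an AP-1 site (TGANTCA), for the gamma-activated site bound by STAT factors (TTCNNNGAA), for the NFAT core (GGAAA) and for a T-box site (TCACACCT). Capitals mark matches, on either strand and 5′ to 3′ along the gene.
Pcsk1, chr13:75089607-75089856, plus strand: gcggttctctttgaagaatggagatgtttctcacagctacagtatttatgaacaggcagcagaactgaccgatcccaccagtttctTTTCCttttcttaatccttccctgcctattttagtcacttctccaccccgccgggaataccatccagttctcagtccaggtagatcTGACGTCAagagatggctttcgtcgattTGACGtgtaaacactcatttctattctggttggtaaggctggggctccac
Furin, first start, chr7:80405437-80405686, minus strand: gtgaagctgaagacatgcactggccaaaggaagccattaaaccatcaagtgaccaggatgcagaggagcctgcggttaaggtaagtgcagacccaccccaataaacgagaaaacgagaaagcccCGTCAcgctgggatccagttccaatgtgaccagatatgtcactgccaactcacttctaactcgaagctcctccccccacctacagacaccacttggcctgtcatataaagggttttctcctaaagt
Furin, second start, chr7:80402813-80403062, minus strand: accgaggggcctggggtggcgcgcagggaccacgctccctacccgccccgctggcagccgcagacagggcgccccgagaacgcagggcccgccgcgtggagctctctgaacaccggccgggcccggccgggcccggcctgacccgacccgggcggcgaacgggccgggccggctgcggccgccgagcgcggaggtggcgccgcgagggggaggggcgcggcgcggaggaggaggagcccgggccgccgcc
Fes, chr7:80387947-80388196, minus strand: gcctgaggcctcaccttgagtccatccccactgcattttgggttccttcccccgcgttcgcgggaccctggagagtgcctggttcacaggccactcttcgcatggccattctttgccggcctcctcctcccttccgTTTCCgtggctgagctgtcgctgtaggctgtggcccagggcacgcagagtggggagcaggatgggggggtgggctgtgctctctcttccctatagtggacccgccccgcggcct

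Pcsk1 had the full cAMP response element, whose first base lies 78 bases before the start, and a further core element at 50 bases. The full element holds the core on each strand, so the 3 core matches of Pcsk1 include both of these. The full element was in 1.55% of the 32851 promoters in the table and the core in 17.8%. The first Furin start had 1 core element at 126 bases, and the second Furin start, which was 83.2% G and C, had no match to any of the 6 motifs. Fes and Pcsk1 had 1 NFAT core each, at 114 and 164 bases, and so did Pcsk5 at 66 bases, a short motif that was in 55.6% of all promoters. AP-1, the gamma-activated site and the T-box site, in 6.75%, 7.02% and 1.12% of all promoters, were in none of the 7 windows. A match is a description of letters and not evidence of binding, and a window without a match says nothing about the factor.

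Pcsk7, the most divergent of the basic-residue convertases and widely expressed, read 8.44, 8.76 and 8.76 on the conditional arrays and 8.31 and 8.57 on the control arrays. The groups overlapped, since control replicate 2 lay above conditional replicate 1. The difference was 0.21, with 0.34 against control replicate 1 and 0.08 against control replicate 2.

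Pcsk4, known from testicular germ cells, read 7.61, 7.41 and 7.62 on the conditional arrays and 7.37 and 7.65 on the control arrays. The groups overlapped fully and all 5 arrays lay within 0.27 of each other. The difference was 0.04, and its sign turned with the array left out, from 0.17 without control replicate 2 to -0.10 without control replicate 1.

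Pcsk5, whose enzyme processes growth factors of the transforming growth factor beta family, read 8.18, 7.93 and 7.78 on the conditional arrays and 10.06 and 8.23 on the control arrays. Control replicate 1 was far above the rest, while control replicate 2 lay only 0.05 above the highest conditional array. The difference of -1.19 therefore rested on control replicate 1, with -2.10 against that array and -0.27 against control replicate 2.

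Pcsk6 encodes PACE4, a convertase that binds the extracellular matrix, and read 9.39, 9.001 and 7.51 on the conditional arrays and 11.90 and 8.80 on the control arrays. The groups overlapped, since control replicate 2 lay below conditional replicates 1 and 2, and the conditional arrays spanned 1.89. The difference was -1.72 against both controls, -3.27 against control replicate 1 and -0.17 against control replicate 2. The gap of 3.10 between the control arrays ranked 67 from the top among all genes, where the median absolute gap was 0.28.

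**Figure D2:**
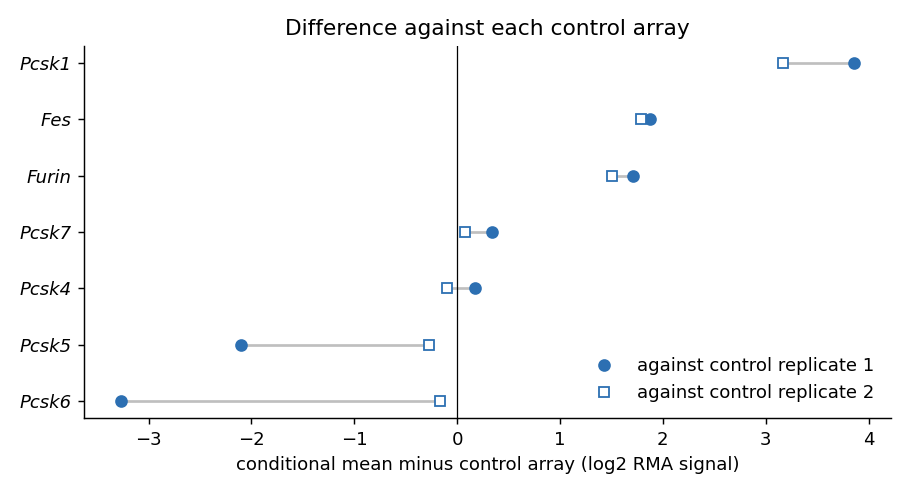
Conditional mean (3 arrays) minus each control array in log2 RMA signal, with filled circles for control replicate 1 and open squares for control replicate 2. Fes, Furin and Pcsk1 keep differences of 1.51 or more against either control, and Pcsk5 and Pcsk6 move from -2.10 and -3.27 to -0.27 and -0.17.

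Of the 7 genes 4 had groups fully apart, 3 higher and 1 lower, beside 30.5% of all genes (17.4% higher and 13.1% lower). The selection used this contrast, so nothing is read from that count. The median difference was 0.21 over the 7 genes and 0.03 over all genes.

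Markers of other cells moved with some of these values. Pcsk5 and Pcsk6 were highest on control replicate 1, the array with the highest stromal, endothelial and colonocyte levels, and lowest on conditional replicate 3, where the mean stromal and endothelial level (8.50) and the mean colonocyte level (7.48) were lowest. Among 12 stromal and endothelial genes 5 were lower with groups apart and 0 higher, and among 12 colonocyte genes 7 were lower and 0 higher. Over all genes 17.4% were higher and 13.1% lower in this way, the background of each marker count here. At an adjusted p under 0.05 (limma) 2 colonocyte genes were lower and 0 higher. These were Krt20, with -1.72 and -1.61 by control array, and Cdhr5, with -1.31 and -1.51. The median of the colonocyte list was -2.34 and -0.63 by control array. Macrophage and monocyte markers had a mean level over 11 genes of 7.36, 7.39 and 8.13 on the conditional arrays and 6.81 and 6.73 on the control arrays, with 7 genes higher and 0 lower. Granulocyte and mast cell markers, with 8 of 12 higher and 0 lower, had mean levels of 6.60, 6.52 and 6.50 on the conditional and 5.85 and 5.89 on the control arrays. The mean T cell level was 10.99, 11.06 and 11.22 on the conditional arrays. Among the 3 conditional arrays, replicate 3 thus had the highest T cell and macrophage levels, as it had for Pcsk1, Furin and Fes. Its granulocyte and mast cell level was the lowest of the 3, at 6.50 against 6.52 in replicate 2. Control replicate 2 had a higher T cell level (11.43), and both control arrays had lower granulocyte and mast cell levels. Of 7 B cell markers 4 were lower and 0 higher, with mean levels of 7.80 to 8.18 on conditional and 8.45 to 9.07 on control arrays. The part of these cells in the convertase and Fes values was not tested.

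Pcsk1 is also a gene of enteroendocrine cells, the hormone cells of the gut lining. Their 12 markers had a mean level of 6.28, 6.06 and 6.22 on the conditional arrays and 6.87 and 6.25 on the control arrays. With groups apart, 0 were higher and 4 lower, beside 17.4% and 13.1% of all genes. Chga, the granule protein chromogranin A, read 6.94 to 7.46 on conditional arrays, 9.35 on control replicate 1 and 7.23 on control replicate 2. The part of enteroendocrine cells in the Pcsk1 values was not tested.

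**Figure D3:**
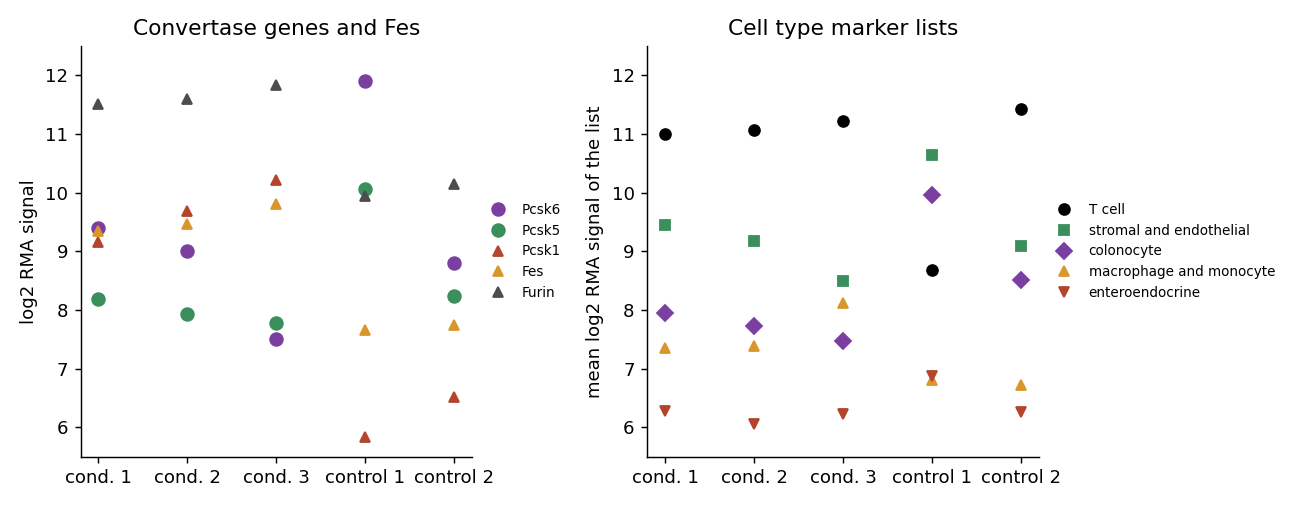
Left, log2 RMA signal of 5 of the 7 genes on each array. Right, mean log2 RMA signal of 5 marker lists on the same arrays. Control replicate 1 has the lowest T cell level (8.69), the highest stromal (10.64) and colonocyte (9.95) levels and the highest Pcsk5 (10.06) and Pcsk6 (11.90).

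Furin and Fes are adjacent on mouse chromosome 7 in the reference gene table (GRCm38.p6), with 0 annotated genes between them and both on the minus strand, so that the end of Furin faces the start of Fes. Pcsk6 is on the same chromosome and not among these neighbours. The difference of the 5 nearest measured genes on each side ran from -0.74 to 0.94 over these 10 genes, against 1.83 for Fes and 1.61 for Furin. Fes and Furin were chosen by this contrast and the neighbours were not. Smaller differences in the neighbours are bound up with that choice, and nothing is read from them. None of the 10 passed the test over all genes (limma, threshold at an adjusted p of 0.05, passed by 0.416% of all genes). An unadjusted p under 0.05 (limma) was reached by 3 of the 10, beside 2892 of all 19937 genes. Groups were apart in 4 of the 10, 3 higher and 1 lower, beside 30.5% of all genes.

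On the side of Fes, the mannosidase gene Man2a2 was at -0.29 (limma, adjusted p = 0.549), with -0.50 and -0.07 by control array, and Hddc3 at -0.74 (limma, adjusted p = 0.161), with -0.96 and -0.53. Unc45a, a myosin chaperone gene, and Rccd1 were at 0.21 and 0.10, and their signs turned by control array, from 0.45 to -0.04 and from 0.38 to -0.18. The cytokinesis gene Prc1 was at 0.94 (limma, adjusted p = 0.275), with 1.28 and 0.60. Beyond Furin, the helicase gene Blm was at 0.60 (limma, adjusted p = 0.422), with 1.01 against control replicate 1 and 0.20 against control replicate 2, and Crtc3, a coactivator of CREB, was at 0.02 (0.26 and -0.22 by control array). The scaffold gene Iqgap1 read 11.31 to 11.35 on conditional arrays and 10.68 to 10.77 on control arrays, a difference of 0.61 (limma, adjusted p = 0.0938), with 0.56 and 0.66 by control array. Zscan2 was at -0.09 (0.29 and -0.46 by control array) and Wdr73 at 0.15 (0.11 and 0.19).

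**Figure D4:**
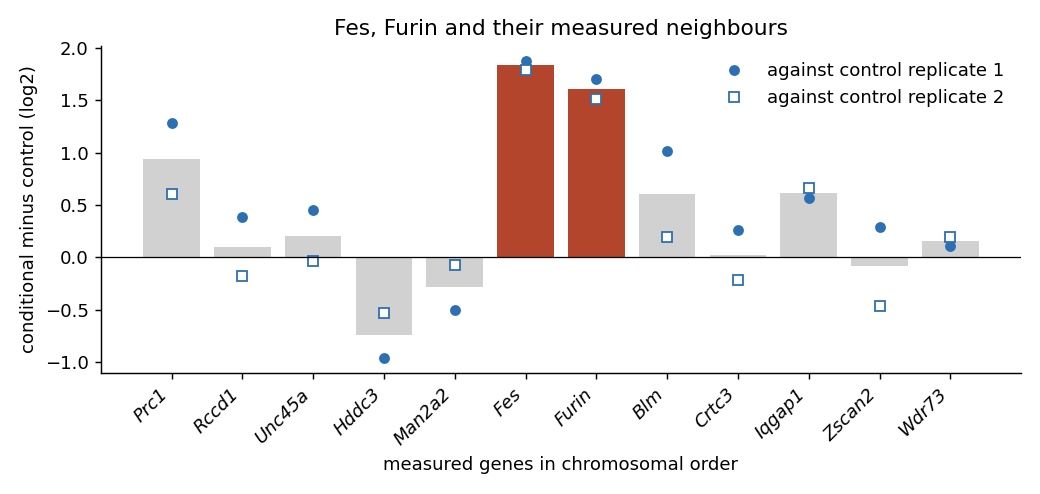
Bars show the conditional (3 arrays) minus control (2 arrays) difference in log2 RMA signal for Fes, Furin (red) and the 5 nearest measured genes on each side (grey), in chromosomal order and not to scale, and points show the difference against each control array. The 10 neighbours lie between -0.74 and 0.94, below the 1.61 of Furin and the 1.83 of Fes, which were chosen by this contrast.

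Profiles over the 5 arrays were compared by the root-mean-square difference of log2 values centred on each gene's mean, as a description with no test. The genes nearest to Furin were Arg2 (0.05), the mitochondrial arginase gene, Sipa1l1 (0.06), Lrrc8d (0.07), a subunit of volume-regulated anion channels, Etv6 (0.07), a transcriptional repressor gene, and Apaf1 (0.09), the apoptosome gene. Fes came 14 among 19936 genes ordered by nearness to Furin, at 0.12. The genes nearest to Pcsk1 were Ermn (0.13), Cxcr6 (0.24), the receptor for the chemokine CXCL16, Olfr60 (0.28), Klrd1 (0.32), the CD94 partner of NKG2 receptors, and Ttc39c (0.34). For Pcsk1, Fes and Furin were at 0.87 and 0.98, since their differences were smaller, and came 68 and 120 among the 19936 genes. All of these profiles come from the same 5 arrays and include the difference between the groups. Pcsk1, Furin and Fes were chosen by that difference, so a near place of 1 to another is bound up with the choice.

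Other genes of convertase biology were taken from 8 lists with 86 genes, of which 78 were measured. Il12rb2 was the 1 gene that passed the test, as higher, and 77 did not pass. The lists were chosen with earlier results of these data known, so list counts and p-values describe these arrays and are no separate support. An unadjusted p under 0.05 (limma) was reached by 25 of the 78, beside 2892 of all 19937 genes. Groups were apart in 33 genes, 25 higher and 8 lower, where 17.4% of all genes were higher and 13.1% lower in this way, and those shares are the background of each list count below, from which nothing is called particular to a list. Over the 78 genes the median difference was 0.06 beside 0.03 over all genes. The count of genes past the test hung on single arrays, with 0 without any 1 conditional array. An unadjusted p under 0.05 (limma) was then reached by 17 to 20 of these genes, beside 1417 to 2037 of all 19937 genes.

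The route known to induce Furin in T cells starts at the interleukin-12 receptor. Il12rb2, its signalling chain, read 11.44, 11.66 and 11.74 on the conditional arrays and 7.73 and 7.61 on the control arrays. The groups were apart, by a difference of means of 3.94 ± 0.133 (SE, limma, adjusted p = 0.0112), with 3.89 and 4.001 by control array. The list for this route held 9 genes and was drawn wider than interleukin-12 signalling. It took in the interleukin-18 receptor genes Il18r1 and Il18rap and the cytokine gene Ifng, which also enter its count and median. Il12rb2, Stat4, Jak2, Il18r1 and Il18rap were the 5 higher with groups apart (17.4% of all genes were), and 0 were lower (13.1% were). Il12rb1, Tyk2, Tbx21 and Ifng had overlapping groups. The median of the list was 1.56 (1.81 and 0.66 against control replicates 1 and 2 alone).

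The relatives, inhibitors and carriers of the convertases differed by smaller amounts. Mbtps1, the site-1 protease that cuts sterol regulatory proteins, was at -0.46 (limma, adjusted p = 0.337), with -0.71 and -0.21 by control array. Gbp5, a guanylate-binding protein known in human cells to lower furin activity, read 8.61 to 8.85 on conditional and 7.71 to 7.87 on control arrays, a difference of 0.90 (limma, adjusted p = 0.0788), with 0.82 and 0.98 by control array. Serpinb8, whose human protein inhibits furin, and Pcsk1n, which encodes the PC1/3 inhibitor proSAAS, were at 0.11 and 0.05 with overlapping groups, and their signs turned by control array, from -0.008 to 0.22 and from 0.12 to -0.02. Flna, the filamin that tethers furin at the cell surface, was at -0.52 (limma, adjusted p = 0.144), with -0.60 and -0.44 by control array. The clathrin adaptor genes Ap1g1 and Ap1m1, which sort furin at the trans-Golgi network, were at 0.30 and 0.26 (limma, adjusted p = 0.286 and 0.346), with 0.25 and 0.36 by control array for Ap1g1 and 0.26 on both for Ap1m1.

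Precursors that convertases cut went both ways. Of 30 measured genes 9 were higher and 5 lower with groups apart, beside 17.4% and 13.1% of all genes, 0 passed the test, and the median of -0.09 turned with the control array, from -0.68 against replicate 1 to 0.28 against replicate 2. Notch2, a receptor cut by furin on its way to the surface, read 11.32, 11.48 and 11.71 on the conditional arrays and 10.20 and 9.82 on the control arrays. Its groups were apart by more than either group's own range, and the difference of 1.50 (1.31 and 1.68 by control array) did not pass (limma, adjusted p = 0.0613). Tgfb1, the cytokine precursor that furin matures, read 11.13, 11.09 and 11.06 against 9.81 and 10.30, a difference of 1.04 (limma, adjusted p = 0.0938), with 1.28 and 0.79 by control array. Itga6, an integrin chain cut by convertases, had the smallest p of the genes that were lower, at -1.06 (limma, adjusted p = 0.111), with -0.81 and -1.32 by control array.

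The prohormone genes whose products PC1/3 and its relatives cut differed little as a list. Of 16 measured genes 3 were higher with groups apart and 0 lower, beside 17.4% and 13.1% of all genes, so the share that was higher lay near the background. That count includes Nts, a dim gene with a mean of 4.23 on conditional and 4.12 on control arrays. None of the 16 passed the test, and the median was 0.03, as over all genes. Penk, the enkephalin precursor that activated T cells also make, read 12.45, 12.48 and 12.31 on the conditional arrays and 11.56 and 11.17 on the control arrays. Its groups were apart, and the difference of 1.05 (0.86 and 1.25 by control array) did not pass (limma, adjusted p = 0.0800). Npy, the neuropeptide Y precursor, was at 0.38 (limma, adjusted p = 0.408), with 0.54 and 0.23 by control array. Chga was at -1.12 (limma, adjusted p = 0.491), which rested on control replicate 1, with -2.18 and -0.06 by control array. Among 5 enzymes that trim the cut peptides, the carboxypeptidase gene Cpm was at 1.92 (limma, adjusted p = 0.212), with 2.80 against control replicate 1 and 1.04 against control replicate 2. The protease gene Ctsl was at -1.38 (limma, adjusted p = 0.317), with -2.15 and -0.62 by control array. Pam, which amidates peptides, was at -1.62 (limma, adjusted p = 0.442), with -2.71 and -0.54 by control array.

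Around Fes, 4 of 8 relatives and partners were higher with groups apart and 0 were lower, beside 17.4% and 13.1% of all genes. The count includes Fcer1a, which was dim, with a mean of 4.68 on conditional and 4.54 on control arrays. Fcer1g, the Fc receptor gamma chain of mast and myeloid cells, read 9.46, 9.25 and 9.73 on the conditional arrays and 7.64 and 7.91 on the control arrays, a difference of 1.71 (limma, adjusted p = 0.0501), with 1.84 and 1.57 by control array. Kit, the stem cell factor receptor, was at 2.17 (limma, adjusted p = 0.0615), with 1.74 and 2.61 by control array. Csf2rb, the shared chain of the interleukin-3 and GM-CSF receptors, was at 2.40 (limma, adjusted p = 0.253), with 1.22 and 3.58 by control array. Kit and Fcer1a are also in the granulocyte and mast cell list. There Fcer1a and the mast cell protease gene Mcpt4 were higher with groups apart, at 0.14 and 0.29. Both were dim, at percentiles 6.96 and 10.2 of mean level over all genes, so little can be read from these small differences. The mast cell protease genes Cpa3, Cma1 and Tpsb2 overlapped between groups at 0.19, 0.15 and 0.09. The part of mast and myeloid cells in these values was not tested.

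**Figure D5:**
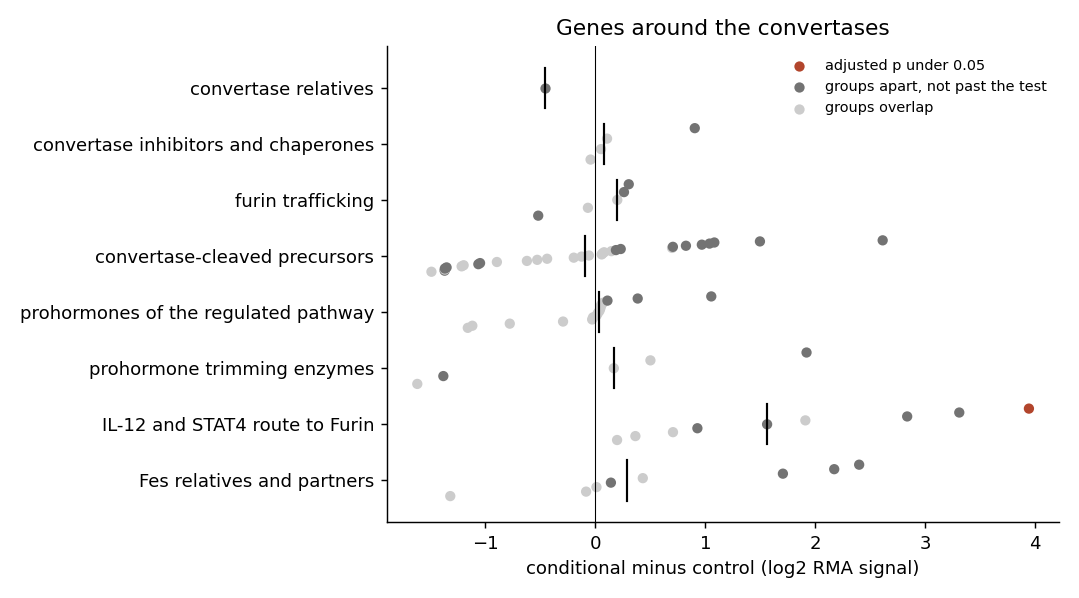
Conditional (3 arrays) minus control (2 arrays) difference in log2 RMA signal for each measured gene of the 8 lists, 1 point a gene, with a black bar at each list's median. Il12rb2 at 3.94 is the 1 point past an adjusted p of 0.05 (limma, red), dark grey points have groups fully apart, and light grey points overlap.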

How the data were processed

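RNA of 5 samples was hybridised to Affymetrix arrays after whole-transcript cDNA synthesis and biotin labelling, per the labels' protocols. The deposited log2 signals were made by the authors with oligo's RMA, per the submitters' processing notes. This method corrects background, forces all arrays to one distribution and combines the probes of a set, so it removes global shifts and compresses differences of dim genes. For its version and the genome build, the sources used here state nothing. Array medians lay between 7.12 and 7.23, no 2 arrays were identical, and arrays carry no read depth, so their number limits the precision.

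Of 34760 probe sets, 21640 had 1 gene symbol, 1321 several and 11799 none, in an older platform annotation. By gene number, 21553 symbols were found in a reference table (GRCm38.p6) and 0 changed. Each of 19937 genes took its probe set with the highest mean. The genotype label set the group and the title the replicate number. The comparison of the groups used limma (version 3.58.1, R 4.3.3; lmFit, eBayes, no covariate), with Benjamini-Hochberg adjustment over all genes and a threshold of 0.05. The procedure was tested on simulated data with large differences and the same spread on every array. These arrays are less even, so that test does not cover smaller differences or an array that stands apart.

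The 7 genes and the lists were chosen with earlier results of these data known. Named were the 7 genes, up to 6 genes past the threshold in each list (otherwise the 3 with the smallest p), the 5 nearest measured neighbours on each side of the Furin and Fes pair, and the 5 genes nearest in profile to Pcsk1 and to Furin, leaving out predicted genes, small RNAs and receptor segments. Some other list genes and cell type markers are named outside this rule. Alternatives were median centring, repeated quantile normalization, a filter on the dimmest 25% of genes, the mean of all probe sets, a variance trend, array weights, a replicate block and each array left out. Background correction, scan date and slide were not varied, since only summarised values were used here.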

Additional observations from a re-analysis of the deposited data

How the results depend on the processing

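Pcsk1, Fes, Furin and Pcsk7 stayed higher and Pcsk5 and Pcsk6 lower in conditional cells under all 12 alternatives. For these genes, each with 1 probe set, the dim-gene filter, the mean of probe sets and the variance trend cannot change a difference, the replicate block repeats the value without conditional replicate 3, and where groups were apart the sign was bound to hold when an array was left out. Their ranges were 3.17 to 3.86 for Pcsk1, 1.70 to 1.96 for Fes, 1.51 to 1.71 for Furin, 0.08 to 0.34 for Pcsk7, -2.10 to -0.27 for Pcsk5 and -3.27 to -0.17 for Pcsk6, while Pcsk4 ran from -0.10 to 0.17. The 83 genes past the threshold over all genes (74 higher, 9 lower) became 110 after median centring, 100 with the variance trend, 81 with the dim-gene filter, 72 with the mean of probe sets, 47 after repeated quantile normalization and 13 with array weights, and leaving out 1 array gave from 0 (each conditional array) to 5474 (control replicate 2), with 1217 without control replicate 1. With 0 called, 1417 to 2037 genes had an unadjusted p under 0.05 (limma). Without 1 control the lone control array is assumed to vary like the conditional arrays. The 1 convertase pathway gene past the threshold became 4 after median centring (with Kit, Fcer1g and Notch2), 2 with the filter on dim genes (with Fcer1g), 3 with the variance trend (with Fcer1g and Stat4) and 4 with the replicate block (with Il18r1, Il18rap and Kit), and leaving out 1 array gave 0 to 47. The cause of these changes was not tested. Equal replicate numbers are not stated to mark a shared experiment. Deviations from the group means correlated across genes at 0.40 for replicate 1 and -0.29 for replicate 2, and the replicate block gave 69 genes in all. The deviations of the control arrays are equal and opposite by construction. These correlations are therefore not separate checks and cannot decide whether replicate numbers mark pairs. No call against background was available, so ratios of dim signals are approximate.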
